A study of Mus musculus with 7 samples.

Results

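The transcriptome of splenic cDC1 from Opa1 knockout mice was described from 4 of the 7 arrays of the series, those labelled KO. Each KO array held total RNA of cDC1 sorted from the spleens of C57BL/6 mice with a CD11c-driven Cre recombinase and a floxed OPA1 gene, and the mice carried B16-OVA tumors, grown from a melanoma line with the model antigen ovalbumin. The other 3 arrays, labelled WT, came from mice with the same tumor and entered only the choice of 1 probe set per gene. CD11c, the product of Itgax, is made by all conventional dendritic cells and by some other leukocytes, so Cre acts in more cells than the sorted ones. The labels do not say whether the 4 KO arrays are 4 mice or pools, so the spread given here is that between arrays and may be technical in part. No genotypes were compared, so there is no test between groups. Values of 19505 named genes on the authors' log2 scale are given below in the order KO 1, KO 2, KO 3 and KO 4, where 1 log2 unit is a factor of 2. A mean followed by ± is given with its SD over the 4 arrays (n = 4).

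Conventional dendritic cells of the cDC1 subset take up dead cells, including tumor cells, and present their antigens on MHC class I to CD8 T cells. They depend on the transcription factors IRF8 and BATF3, and in the spleen they carry XCR1, the receptor for the chemokine XCL1, the dead-cell receptor CLEC9A and the CD8 alpha chain. OPA1 is a GTPase of the inner mitochondrial membrane that fuses inner membranes and keeps cristae narrow, in work shared with the mitofusins of the outer membrane and opposed by the fission GTPase DRP1.

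Levels were read against the 5222 negative control probe sets on the same arrays. Their median lay at 6.88, 6.49, 6.67 and 6.88 and their 95th percentile at 10.19, 9.73, 9.94 and 10.19, so KO 2 had the dimmest negative controls. The median of the named genes differed much less, at 8.14, 8.14, 8.13 and 8.12, and the median of the 1324 positive controls lay between 10.45 and 10.57. Of the named genes, 3345 (17.1%) exceeded the 95th percentile of the negative controls on all 4 arrays, and 13671 (70.1%) exceeded their median on all 4. A gene is called above the controls below where it passed the 95th percentile on every array. Counts of list members above the controls, or above the median, are to be read against these shares of all named genes. Signals of different probe sets also depend on their probes, so the order of genes by brightness is not an order of RNA amounts.

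Opa1 itself (probe set TC1600000387.mm.2) read 7.70, 7.10, 6.85 and 8.24, a mean of 7.47 ± 0.62. KO 4 and KO 1 were the higher arrays and KO 3 the lowest, with a range of 1.39. Opa1 was above the median but not above the 95th percentile of the negative controls. The sources used here do not give where its probes lie relative to the floxed exons, so this value does not check the deletion. A range over 1 was found for 337 of the 19505 genes (1.73%), and Opa1 was one of them. Without KO 2 the count over the other 3 arrays was 153, and without KO 4 it was 176. In RNA of many cells, fewer cells with a transcript and less of it per cell cannot be told apart.

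The sorted cells carried the cDC1 profile on every array. Of 19 measured genes of the cDC1 list, 17 were above the controls, and all 19 exceeded the negative control median. Xcr1 read 12.70, 12.79, 12.71 and 12.78, an SD of 0.048. Clec9a, which recognises actin exposed by dead cells, read 12.11, 12.03, 12.08 and 12.05. Cd8a read 12.12, 11.95, 11.96 and 12.00, and the transcription factor gene Batf3 read 12.29, 12.23, 12.27 and 12.29. These 4 genes varied by at most 0.17 between arrays, and no array stood low for all of them. Irf8, which encodes the lineage-defining factor, was slightly more spread at 12.45, 12.62, 12.70 and 12.48, with KO 2 and KO 3 above KO 1 and KO 4.

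Other members of the list behaved in the same way. Naaa, encoding an acid amidase of lysosomes, was the brightest of them at 13.85, 13.87, 13.81 and 13.71. Tlr3, the receptor for double-stranded RNA, read 12.54 ± 0.14, and Wdfy4, which is required for cross-presentation of cell-associated antigen, read 12.53 ± 0.086. The adhesion molecule gene Cadm1 read 12.13 ± 0.040. Itgae, encoding CD103, had the widest range of the list, 0.63, at 11.03, 11.66, 11.66 and 11.33, with KO 1 the lowest. The 2 members not above the controls were Cxcr3 at 10.09, 10.46, 10.23 and 10.29 and Cd24a at 9.31, 9.36, 9.23 and 9.45. Both exceeded the negative control median on all 4 arrays.

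**Figure D1:**
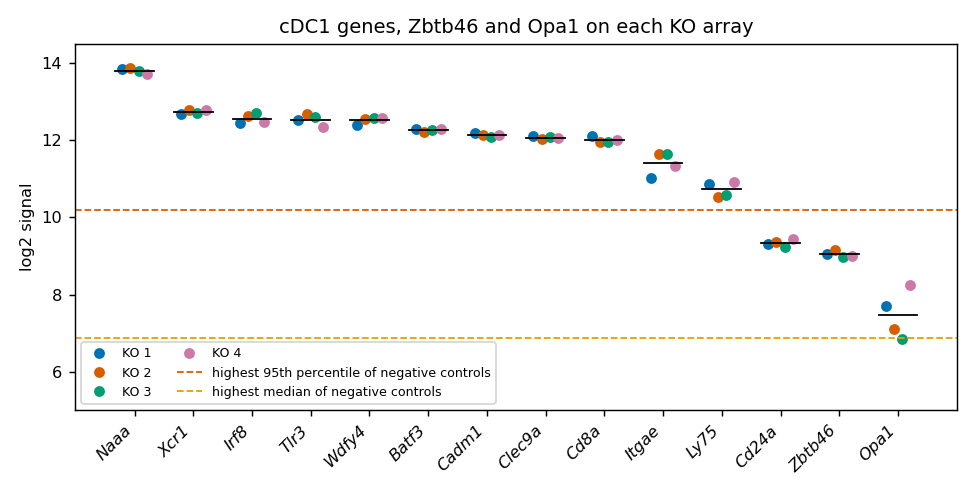
Log2 signal (y axis) of 12 cDC1 list genes, Zbtb46 and Opa1 on each KO array, 1 colour per array, with the 4-array mean as a bar; dashed lines are the highest median and the highest 95th percentile of the negative controls among the arrays. The lineage genes from Naaa to Ly75 sit above the upper line on all 4 arrays, Cd24a and Zbtb46 sit between the lines, and Opa1 spreads from 6.85 to 8.24.

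Genes shared by dendritic cells were also bright. Of 11 measured, 9 were above the controls, among them Itgax (12.14, 12.07, 11.99 and 12.39), whose promoter region drives the Cre, Ciita, the master regulator of MHC class II transcription (11.67, 11.58, 11.70 and 11.64), and Flt3, the receptor for the growth factor that sustains dendritic cells (10.49, 10.61, 10.20 and 10.31). Zbtb46, a transcription factor gene of conventional dendritic cells, was not above the controls at 9.04, 9.15, 8.99 and 8.99, and Dpp4, encoding the CD26 peptidase, passed on 3 of 4 arrays at 10.11, 10.38, 10.41 and 10.27. The median level of this list was 11.16, that of the cDC1 list was 12.01, and that of all named genes was 8.14.

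Marker lists of other cell types had lower median levels than the cDC1 list. Their shares above the controls are read against the 17.1% of all named genes, and those of the cDC2 and plasmacytoid lists lay near it. Of 13 cDC2 genes 2 passed, the TNF-induced gene Tnfaip2 (11.19, 10.11, 10.77 and 11.17) and the CD47 receptor gene Sirpa (10.33, 9.75, 10.20 and 10.19). Of 10 plasmacytoid dendritic cell genes 2 passed, Bst2 (11.46, 11.73, 11.57 and 11.26), which is also interferon-induced, and the transcription factor gene Tcf4 (10.99, 11.14, 11.03 and 11.19). Siglech, a defining plasmacytoid gene, read 8.45, 8.16, 8.57 and 9.14. Of 16 monocyte and macrophage genes only Lyz2, the lysozyme of myeloid cells, passed, at 11.08, 11.00, 11.00 and 11.07. Of 9 B and plasma cell genes only Jchain, which links immunoglobulin chains, passed, at 10.88, 10.05, 10.69 and 11.75, with KO 4 the highest and KO 2 the lowest.

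For T cell, NK cell and neutrophil markers no gene passed. None of 10 T cell, 10 NK cell and 11 neutrophil genes was above the controls, against 17.1% of all genes. Cd3e, a chain of the T cell receptor complex, read 7.72, 7.69, 7.87 and 8.26. Ncr1, the NK receptor NKp46, read 8.95, 6.34, 8.19 and 9.37, and there KO 2 lay below the negative control median while the other 3 arrays lay above theirs. S100a9, a calcium-binding protein of neutrophils, read 8.998, 8.13, 9.12 and 9.61. The erythroid and platelet list had 1 of 9 above the controls, Gp9 (10.26 ± 0.14), and the fibroblast and endothelial list 1 of 11, Pecam1 (10.44 ± 0.23), which leukocytes also express.

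The tumor's own lineage was examined with 15 melanocyte genes. Only Kit passed the controls. Kit is the stem cell factor receptor, which haematopoietic cells also express, and read 13.03, 13.06, 13.04 and 13.07. The pigment cell genes were dimmer and unequal between arrays. Pmel, the structural protein of melanosome fibrils, read 9.75, 9.68, 9.11 and 7.99. Tyrp1, a melanin synthesis enzyme, read 8.99, 8.56, 8.07 and 7.05, and Dct, another such enzyme, read 8.89, 8.45, 8.22 and 7.58. In each of these 3 genes KO 1 was the highest and KO 4 the lowest. KO 4 was the lowest array for 13 of the 15 members, against 31.7% of all named genes. The median deviation of the negative controls on KO 4 was 0.12. Tyr, encoding tyrosinase, was not above the negative control median on every array, at 7.15, 7.04, 6.58 and 6.20. What part tumor-derived RNA and the signal of the negative controls have in these values was not tested.

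**Figure D2:**
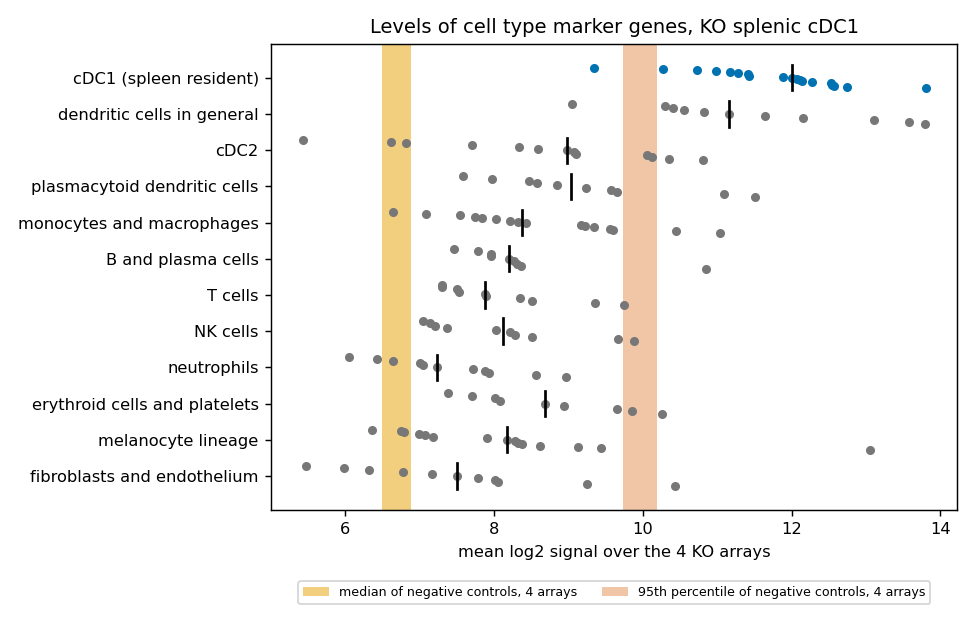
Mean log2 signal over the 4 KO arrays (x axis) of each measured marker gene (points) by cell type list (rows), with the list median as a bar and the range over arrays of the negative controls' median and 95th percentile as shaded bands. The cDC1 list has a median of 12.01, right of both bands, while the medians of the cell types other than dendritic cells in general lie between 7.23 and 9.04.

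The brightest genes of the KO profile were those of antigen presentation, translation and the actin cytoskeleton. Among the 25 genes with the highest mean were 10 ribosomal protein genes, 3 of the MHC class II pathway, 3 of the actin cytoskeleton, 1 cDC1 list gene (Naaa) and 8 others, and none had a provisional symbol. Cst3 led them at 14.00, 14.00, 14.04 and 14.01; it encodes cystatin C, an inhibitor of cathepsins that is abundant in dendritic cells. Psap, the precursor of the saposins, which activate lysosomal lipid hydrolases, read 13.61 ± 0.037. Actb, beta-actin, read 13.75, 13.75, 13.77 and 13.81, and its bundling protein gene Lcp1 read 13.44 ± 0.056. Dusp1, a phosphatase that shuts down MAP kinases and is induced within minutes of stimulation, read 13.75, 13.75, 13.77 and 13.79. Ly6e, a GPI-anchored and interferon-inducible surface protein gene, read 13.69 ± 0.055. All 35 measured ribosomal protein genes were above the controls, from Rpsa at 13.80 to Rplp0 at 11.52, with a median SD of 0.053.

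MHC class II genes were the steadiest antigen presentation group. All 12 measured were above the controls, their median level was 12.77, and their median SD was 0.048, against 0.078 for the class I loading genes. The class I genes were dimmer, with a median level of 11.98, and the SD of bright named genes fell with level. H2-Ab1, the beta chain of I-A, read 13.84, 13.78, 13.76 and 13.80. H2-Eb1 read 13.58, 13.54, 13.55 and 13.63 and H2-Aa, the I-A alpha chain, read 13.06, 13.13, 13.13 and 13.12. H2-DMb1, a chain of the peptide-exchange factor H2-M, read 13.39, 13.49, 13.45 and 13.41. The dimmest was Marchf1, the ubiquitin ligase that sends MHC class II for degradation, at 11.38, 11.22, 11.39 and 11.44. No array was low for the group, whose median deviations from the 4-array mean were -0.02, 0.01, 0.02 and 0.00.

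For 3 of these genes that hold the letters described next, the 150 bases before the start are printed from RefSeq (GRCm38.p6), 5′ to 3′ on the gene's strand. Class II promoters are known for an X and Y box module, and the Y box holds CCAAT, which reads ATTGG on the other strand. The capitals mark either lettering.

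H2-Aa, chr17:34287824-34287973, minus strand: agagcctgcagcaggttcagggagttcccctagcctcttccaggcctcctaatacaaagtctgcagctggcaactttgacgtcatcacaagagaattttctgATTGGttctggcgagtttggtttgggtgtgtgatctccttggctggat
H2-Eb1, chr17:34305717-34305866, plus strand: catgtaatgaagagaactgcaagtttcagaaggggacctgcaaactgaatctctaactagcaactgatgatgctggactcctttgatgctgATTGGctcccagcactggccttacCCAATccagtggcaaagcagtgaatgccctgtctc
H2-DMb1, chr17:34153041-34153190, plus strand: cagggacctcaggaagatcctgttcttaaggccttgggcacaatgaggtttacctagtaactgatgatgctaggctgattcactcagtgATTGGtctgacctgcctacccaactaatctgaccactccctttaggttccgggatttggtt

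Of the 12 measured class II pathway genes, these 3, H2-DMb2, H2-Oa and H2-Ob had CCAAT on either strand in this window, H2-DMa, Ctss, Ifi30 and Marchf1 did not, and H2-Ab1 and Ciita were not matched in the table. The same letters stood in 8047 of 32851 RefSeq promoters (24.5%). In these 3 promoters the match nearest to the start began 48, 35 and 61 bases before it. A match of letters is a description and not a binding site. Its relation to the spread between arrays was not tested. H2-DMa, without the letters, had an SD of 0.042, and H2-DMb1, with them, 0.043.

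MHC class I loading genes followed closely, with 15 of 17 above the controls and a median level of 11.98. The proteasome activator gene Psme1 read 13.48, 13.48, 13.51 and 13.48, the light chain gene B2m read 13.51, 13.41, 13.37 and 13.36, and the immunoproteasome gene Psmb9 read 13.04 ± 0.055. H2-K1 read 13.06 ± 0.082; class I heavy chain genes are close in sequence, so their probe sets may share signal. Erap1, a trimming peptidase of the endoplasmic reticulum (10.11 ± 0.14), and H2-Q4 (8.65 ± 0.31) were the 2 not above the controls.

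Of 14 cross-presentation and phagosome genes, 10 were above the controls. Cyba, the small subunit of the phagosomal NADPH oxidase, read 12.61 ± 0.052. Cybb, the catalytic subunit of the same enzyme, was not above the controls and spread over 1.18, at 10.36, 9.58, 10.02 and 10.75, with KO 4 the highest and KO 2 the lowest. Rab43, a GTPase of cross-presentation in CD8 alpha cDC1, read 12.22 ± 0.10. Rab34 was the dimmest member at 7.68, 6.997, 7.21 and 6.89.

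In the list of dendritic cell transcription factors 15 of 19 genes were above the controls. The list had a median SD of 0.094 at a median level of 11.17. All named genes at levels between 11 and 12 had a similar median SD, 0.101. Spi1, encoding PU.1, led at 12.98, 12.94, 12.90 and 12.93. Id2, which opposes E proteins, read 12.20, 12.17, 12.43 and 12.28. Irf4, the cDC2 factor, read 7.89, 6.90, 7.87 and 8.16, the dimmest of the list, with KO 2 the lowest. Among 18 Toll-like receptor and adaptor genes 7 were above the controls: Tlr3, Unc93b1 (11.64 ± 0.039), Myd88 (11.17 ± 0.37), Tlr9 (11.15 ± 0.22), Tlr11 (10.98 ± 0.14), Tlr13 (10.97 ± 0.38) and Tlr12 (10.61 ± 0.018). All 5 of these receptors sense ligands inside the cell, and Unc93b1 encodes the chaperone that carries them to endosomes. Tlr5, the flagellin receptor, read 6.87, 6.31, 6.99 and 6.81, and Tlr8 read 7.21, 6.42, 7.16 and 7.06, both not above the negative control median on every array.

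Immediate early genes were bright in all 4 arrays. Of 21 measured, 18 were above the controls, with a median of 12.32. Fosb read 13.27, 13.26, 13.23 and 13.44, Junb 12.89, 12.90, 12.88 and 12.99 and Egr1 12.94, 12.88, 12.85 and 12.80, all transcription factor genes that are induced rapidly by stimulation. The orphan nuclear receptor gene Nr4a2 was the most variable of the list at 12.67, 11.58, 12.07 and 12.30, with KO 1 the highest and KO 2 the lowest. The 3 not above the controls were Klf2 (10.07 ± 0.34), Dusp2 (9.89 ± 0.17) and Ier3 (8.14 ± 0.12).

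Inflammatory genes divided by member. Of 22 NF-kB and cytokine genes 11 were above the controls, led by Il1b (12.71, 12.68, 12.70 and 12.97), the chemokine gene Cxcl16 (12.71 ± 0.17) and the inhibitor gene Nfkbia (12.64 ± 0.084). Il12a, a subunit of interleukin 12, read 6.07, 6.17, 5.79 and 5.96, below the negative control median on all 4 arrays. Of 28 type I interferon response genes 6 were above the controls, a share near the 17.1% of all genes, including the T cell chemoattractant gene Cxcl9 (12.03, 11.37, 11.55 and 12.19) and the transcription factor gene Irf7 (10.66, 11.30, 11.10 and 10.80). Ifit1, a common readout of interferon, read 7.28, 6.97, 6.94 and 7.14, and Isg15 read 8.22, 8.36, 8.26 and 8.20. The list's median level, 8.54, was near the 8.14 of all genes.

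Lysosomal and cytoskeletal genes were next examined. Of 22 cathepsin and lysosome genes 15 were above the controls; the cathepsin genes Ctsb and Ctsz read 12.33 ± 0.052 and 12.26 ± 0.023, and Lgmn, encoding the endopeptidase legumain, read 12.15, 12.13, 12.37 and 12.34. Ctse, a cathepsin of endosomes, was not above them and divided the arrays at 8.11, 9.01, 9.10 and 8.28, with KO 2 and KO 3 the higher pair. Of 27 actin and motility genes 23 were above the controls, with a median level of 12.54. Arpc2 (13.33 ± 0.069) and Actr3 (13.27 ± 0.053), subunits of the actin-nucleating complex that branches actin filaments, were the brightest after Actb, Lsp1 and Lcp1.

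Surface receptors of leukocytes and of growth factors were mixed. Of 15 pan-leukocyte genes 12 were above the controls, with Ptprc, encoding CD45, at 12.97, 13.09, 13.07 and 13.06. Spn, encoding CD43, was the dimmest at 8.15, 8.25, 8.27 and 8.50. Of 22 chemokine receptor and ligand genes 6 were above the controls: Xcr1, Cxcl16, Cxcl9, Ccl3 (10.64 ± 0.090), Ccr7, which guides dendritic cells to lymph nodes (11.08, 10.97, 10.99 and 11.23), and Cxcr4, the CXCL12 receptor (11.47, 11.76, 11.69 and 11.56). Of 17 growth factor receptor and signalling genes 9 were above the controls, led by Kit, followed by Stat3 (12.07 ± 0.069) and Jak2 (11.92 ± 0.084). Csf2ra, a GM-CSF receptor chain, read 11.76, 11.59, 11.63 and 11.70, while Csf1r, the macrophage growth factor receptor, was not above the controls at 9.56, 9.21, 9.67 and 9.77.

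Nuclear genes of the respiratory chain and ATP synthase were mostly bright, with 29 of 37 above the controls and a median of 11.57. Cox7c, a small subunit of cytochrome oxidase, read 13.38, 13.40, 13.36 and 13.41. Atp5b, the catalytic beta subunit of ATP synthase, read 13.04, 13.15, 13.10 and 13.00. The dimmest was Ndufs1, an iron-sulfur subunit of complex I, at 8.36, 8.26, 8.14 and 8.17. KO 2 was the highest array in 31 of the 37, against 30.6% of all genes, and KO 2 and KO 3 together were the brighter pair in 29, against 24.0%. The deviations were small, at -0.07, 0.13, 0.06 and -0.11. All named genes at levels between 11 and 12 deviated in the same directions, by -0.02, 0.05, 0.02 and -0.03. The pattern is also not particular to this list. KO 2 and KO 3 were the brighter pair in 20 of 35 ribosomal protein genes and 11 of 15 pan-leukocyte genes, but in 1 of 21 immediate early genes.

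Among the genes of mitochondrial fusion, fission and cristae, 12 of 25 were above the controls. Dnm1l, encoding the fission GTPase DRP1, read 11.53, 11.50, 11.63 and 11.55, and the gene of the fission adaptor, Fis1, read 11.50, 11.71, 11.66 and 11.51. The mitofusin genes were not above the controls, with Mfn1 at 9.96, 9.77, 9.94 and 9.74 and Mfn2 at 9.21, 9.17, 9.13 and 9.07. The prohibitin genes Phb (12.12 ± 0.054) and Phb2 (11.96 ± 0.091), which scaffold the inner membrane, and Micos10 of the cristae junction complex (12.95 ± 0.080) were the brightest. Opa1 had the widest range of all 25. Of 23 integrated stress response genes 5 were above the controls, also near the 17.1% of all genes, led by the transcription factor gene Atf4 (12.34, 12.31, 12.29 and 12.45) and the amino acid transporter gene Slc3a2 (12.41, 12.14, 12.33 and 12.46). Asns, asparagine synthetase, was not above them at 9.13, 8.99, 9.07 and 8.74.

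The cell cycle list had a median level of 9.96, against 8.14 for all named genes. Of 28 cell cycle genes 8 were above the controls, against 17.1% of all genes. All 28 exceeded the negative control median on all 4 arrays, against 70.1% of all genes. Pcna, the clamp of DNA replication, read 12.07, 12.16, 11.94 and 12.16, and Mki67, the proliferation antigen, read 11.87, 11.73, 11.59 and 11.52. The replicative helicase genes Mcm2 (10.84, 11.33, 10.99 and 10.71), Mcm3 (11.00, 11.11, 10.83 and 10.60), Mcm5 (10.92, 11.03, 10.87 and 10.70) and Mcm6 (10.93, 11.15, 10.85 and 10.76) were lowest on KO 4 in each case. KO 2 was the highest array for 15 of the 28, against 30.6% of all genes, and KO 4 the lowest for 14, against 31.7%. KO 1 and KO 2 were the brighter pair in 14, against 19.0% of all genes.

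The arrays were close to each other. Across genes, which are not independent replicates, Pearson correlations between pairs of arrays lay between 0.988 (KO 2 with KO 4) and 0.993 (KO 2 with KO 3). Correlations over all genes also reflect the fixed differences between probe sets. Among the genes above the controls they lay between 0.945 and 0.984, for the same pairs. The median SD of a gene was 0.142, with 5% of genes under 0.047 and 5% over 0.337. It was 0.103 among the 3345 genes above the controls and 0.0762 among the 500 brightest. Of the genes above the controls, 15 (0.448%) had a range over 1. The steadiest of the 500 brightest were Rab10, a GTPase of membrane traffic (12.56, 12.55, 12.55 and 12.57), Rpl27, Arf6, Psme1 and Snx5. The largest number of genes more than 1 log2 apart between a pair of arrays was 177, for KO 2 and KO 4, and the smallest was 47, for KO 1 and KO 3.

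The negative controls spread more than the genes, with a median SD of 0.296. KO 2 was the lowest array for 48.2% of them, and KO 1 and KO 4 were the brighter pair for 39.9%. The corresponding shares of named genes were 23.7% and 19.0%. At equal level, between 8 and 9, the median deviations of negative controls were 0.16, -0.26, -0.05 and 0.17, while those of named genes were 0.01, 0.01, -0.01 and -0.01.

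**Figure D3:**
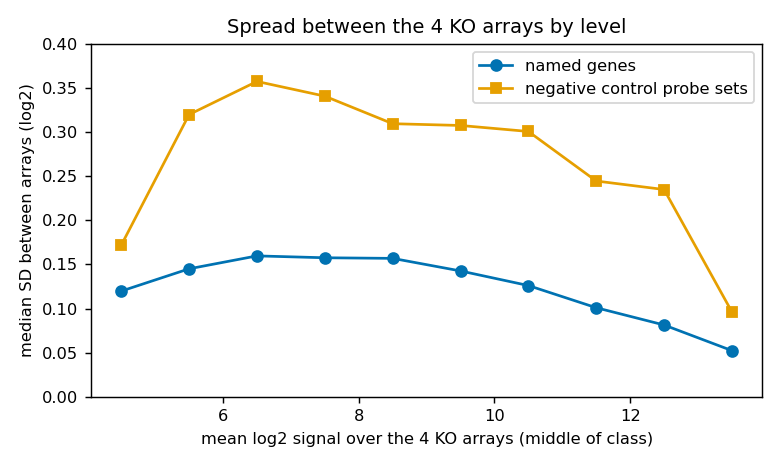
Median SD between the 4 KO arrays (y axis, log2) against level (x axis, middle of classes of 1 log2 unit), for named genes (circles) and negative control probe sets (squares). The SD of named genes declines from 0.16 between 6 and 7 to 0.052 in the top class, from 13, and negative controls lie above the genes in every class.

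The maturation genes varied in the same order of arrays as the negative controls. Of the 24 maturation and co-stimulation genes, KO 4 was the highest in 17, against 21.6% of all genes, and KO 2 the lowest in 17, against 23.7%, with KO 1 and KO 4 the brighter pair in 18, against 19.0%. Cd86, a ligand of CD28, was bright and steady at 12.77, 12.73, 12.79 and 12.86. Fscn1, the actin bundler of mature dendritic cells, ranged over 2.15 at 9.90, 9.01, 10.16 and 11.16. Cd274, encoding PD-L1, read 11.20, 9.59, 10.36 and 10.99, and Socs2, an inhibitor of cytokine signalling, read 8.87, 7.72, 8.48 and 9.61. KO 2 was the lowest array in these 3 and KO 1 or KO 4 the highest. The median deviations of the list, 0.06, -0.27, -0.07 and 0.23, lie beside 0.10, -0.17, -0.05 and 0.12 of the negative controls, whose part in them was not tested.

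The lymphocyte lists were also lowest on KO 2. KO 2 was the lowest in 10 of 10 T cell genes, against 23.7% of all genes, with deviations of 0.08, -0.37, -0.02 and 0.22, and in 7 of 10 NK cell genes, with 0.15, -0.46, 0.12 and 0.09. KO 4 was the highest in 8 of 9 B and plasma cell genes, against 21.6% of all genes, with 0.06, -0.30, -0.14 and 0.21. Il2rb, a receptor chain of interleukins 2 and 15, read 10.35, 8.32, 10.10 and 10.53, with KO 2 far under the others. The monocyte and macrophage list had KO 2 lowest in 11 of 16, with 0.08, -0.33, 0.19 and -0.02, so KO 3 and not KO 4 was its highest array. Ccr2, the receptor for CCL2, went the other way at 8.46, 9.96, 10.09 and 9.90, with KO 1 the lowest. The part in these values of cells of other types, and of the negative controls, which were lowest on KO 2 as well, was not tested.

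**Figure D4:**
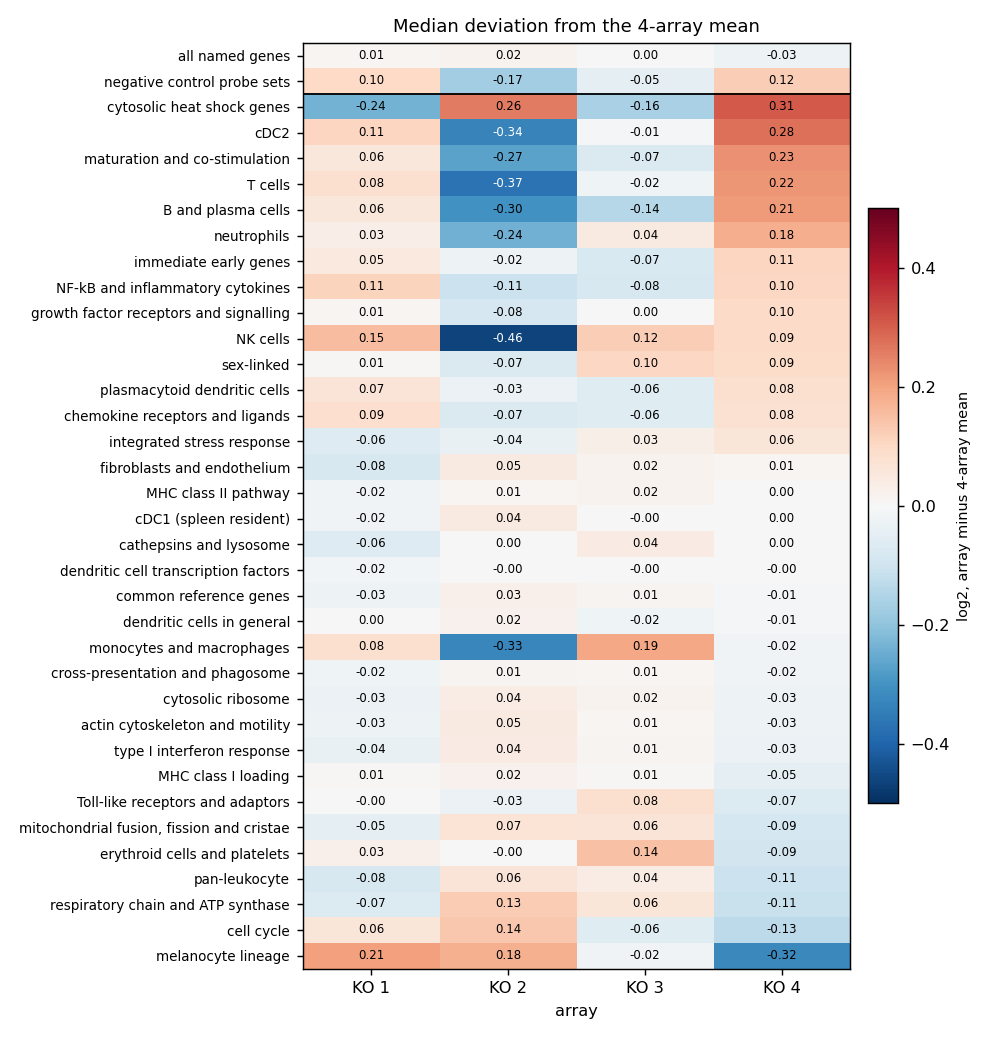
Median over the members of each gene list (rows) of the log2 value minus the 4-array mean, for each KO array (columns), in numbers and colour; the top 2 rows are all named genes and the negative control probe sets, and lists below are sorted by KO 4. The heat shock list is high on KO 2 and KO 4, the cDC2, T cell and NK cell lists are low on KO 2, the melanocyte list is low on KO 4, and the cDC1 and MHC class II lists stay at or within 0.04 of zero.

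Heat shock genes divided the arrays in another way. Of 12 cytosolic heat shock genes, KO 2 and KO 4 were the brighter pair in 9, against 11.9% of all named genes, and KO 1 was the lowest in 6, against 22.9%. Hspa1a, the inducible HSP70, read 11.06, 12.67, 12.03 and 12.62, a range of 1.61. Hspa1b read 7.95, 9.52, 8.74 and 9.47 in the same order; it is a near-identical copy, so the 2 probe sets may share signal. The cochaperone gene Dnajb1 read 11.40, 12.33, 11.80 and 12.32. Hsph1, encoding HSP110, read 11.33, 12.18, 11.33 and 12.24, with KO 2 and KO 4 clear of the other pair, and Hspb1, a small heat shock protein gene, read 7.47, 8.60, 7.43 and 8.40 with the same split. Hsp90aa1 (12.51, 12.74, 12.59 and 12.82) had the same brighter pair over a range of 0.31. The negative controls had median deviations of 0.10, -0.17, -0.05 and 0.12, lowest on KO 2 and highest on KO 4. Their part in the heat shock values was not tested. The median deviations of the heat shock list were -0.24, 0.26, -0.16 and 0.31, the highest of any list for KO 4.

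For 4 of these genes that hold the letters described next, 150 bases upstream are printed from RefSeq (GRCm38.p6), 5′ to 3′ on the gene's strand. Whether those letters relate to the order of the arrays was not tested. HSF1 is known to bind repeats of GAA and its complement TTC, and the capitals mark GAANNTTC or TTCNNGAA, each of which reads the same on both strands.

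Hspa1a, chr17:34972157-34972306, minus strand: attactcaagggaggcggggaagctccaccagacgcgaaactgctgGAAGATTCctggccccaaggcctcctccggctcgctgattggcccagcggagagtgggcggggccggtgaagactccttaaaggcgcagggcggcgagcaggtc
Hspa1b, chr17:34959239-34959388, minus strand: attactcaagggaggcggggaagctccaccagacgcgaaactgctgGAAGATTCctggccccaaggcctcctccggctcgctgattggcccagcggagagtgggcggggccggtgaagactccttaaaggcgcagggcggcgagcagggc
Hsph1, chr5:149636337-149636486, minus strand: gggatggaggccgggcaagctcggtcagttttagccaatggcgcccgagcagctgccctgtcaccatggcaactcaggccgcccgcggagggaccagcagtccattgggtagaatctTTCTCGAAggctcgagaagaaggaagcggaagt
Hspb1, chr5:135887769-135887918, plus strand: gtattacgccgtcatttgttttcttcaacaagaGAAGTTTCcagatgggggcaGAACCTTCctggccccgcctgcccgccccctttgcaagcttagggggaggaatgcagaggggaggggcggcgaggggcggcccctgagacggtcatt

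Of the 12 measured heat shock genes, these 4 and Hspe1 had either lettering in the window, 6, including Dnajb1, did not, and Hsp90aa1 was not matched in the table. Of 32851 RefSeq promoters 2540 (7.73%) had it. The windows of Hspa1a and Hspa1b were identical at 149 of 150 bases. The match in both began 104 bases before the start.

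The widest difference between arrays was found in a gene of chromosome 7, and other genes of that chromosome divided the arrays into the same pairs. Trim30d, a member of the tripartite motif family, read 11.03, 11.57, 6.80 and 6.26, the widest range of any gene above the controls on at least 1 array (5.31). KO 1 and KO 2 were high, and KO 3 and KO 4 lay near the negative control median. Gm1966, a predicted gene, read 10.03, 10.54, 6.997 and 6.71, with the same arrays high and low. Trim30b, with a narrower range of 1.51, read 9.92, 10.19, 8.68 and 8.91, again in the same split. Inppl1, the lipid phosphatase SHIP2, read 9.77, 9.79, 10.89 and 10.91, the opposite way, with the pairs 1.11 apart at their nearest arrays.

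A gap of over 0.8 between the 2 higher and the 2 lower arrays was found for 18 genes, 0.0923% of all. Of these, 5 divided KO 1 and KO 2 from KO 3 and KO 4, and 4 of the 5 were the chromosome 7 genes just named; the other was Tfpi, an inhibitor of coagulation, at 6.88, 6.53, 8.34 and 8.01. The split of KO 1 and KO 4 from the others held 9 genes, and that of KO 2 and KO 4 from the others held 4. In the order of the RefSeq annotation, 176 measured genes lie between Inppl1 and Gm1966, with Trim30b and Trim30d among them. Of the other 174, only 2 differed by more than 0.5 between the pair means, the larger being Trim12a (11.06, 11.04, 10.57 and 10.18) at 0.67. Over all genes 288 (1.48%) differed by that much. Many of the 174 are olfactory receptor genes that were not above the negative control median on every array. Genes that dim can show little difference. Trim30a and Trim12c, which lie beside Trim30b, were above the controls, and their pair means differed by -0.02 and 0.02. The chromosome 7 genes were singled out after their values were seen. Trim30 and Trim12 genes are close paralogs whose probe sets may share signal.

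**Figure D5:**
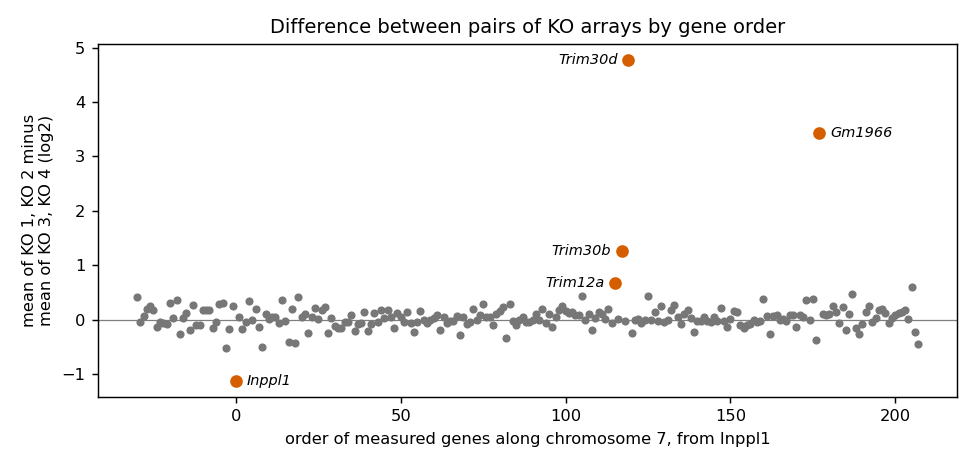
Mean of KO 1 and KO 2 minus mean of KO 3 and KO 4 (y axis, log2) for measured genes in RefSeq order along chromosome 7 (x axis, number of measured genes from Inppl1). Trim30d, Gm1966 and Trim30b lie above the other genes and Inppl1 below, while the genes between them scatter around zero. Many of the genes between them are dim olfactory receptor genes.

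Other wide ranges came from varied arrays. Slc4a8, a bicarbonate transporter gene, read 10.60, 10.07, 8.25 and 9.28, with KO 3 the lowest. Sparc, a matricellular protein gene, read 7.92, 8.90, 10.26 and 8.68, with KO 3 the highest and KO 1 the lowest. Nav2, a neuron navigator gene, read 11.00, 9.72, 9.66 and 9.61, where KO 1 stood 1.28 above the nearest array. Ccr9, a gut-homing chemokine receptor, read 9.64, 10.19, 8.85 and 8.24. Slc1a5, the glutamine transporter, read 12.69, 12.47, 12.20 and 11.60, with KO 4 the lowest. Jchain, given above, had a range of 1.70.

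Further genes were named for their wide ranges alone. Gclc, the catalytic subunit of glutathione synthesis, read 11.25, 10.11, 10.53 and 11.79, and Hmox1, heme oxygenase, read 10.11, 9.22, 9.69 and 10.83. Nudt17, a nudix hydrolase gene, read 9.76, 8.99, 9.29 and 10.41. In all 3 KO 4 was the highest and KO 2 the lowest, the order also seen for Jchain and for the maturation list. Hpgd, which inactivates prostaglandins, read 9.85, 8.67, 9.99 and 10.06, with KO 2 the lowest. Tmem176b, a membrane protein gene of dendritic cells, read 11.01, 9.85, 10.42 and 11.34. Fgfr1 read 8.85, 10.12, 9.61 and 8.72, and Gbp4, an interferon-inducible GTPase gene, read 10.41, 9.40, 9.83 and 10.80.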

How the data were processed

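RNA of sorted splenic cDC1 was measured after Whole Transcript Plus labelling, per the labels' protocols. Per the submitters' processing notes, the authors used RMA in Affymetrix Expression Console 1.1, and their deposited table holds log2 values of 28846 probe sets. The sources used here give no genome build. That the scale is log2 follows from the range of the KO values, 3.68 to 14.28. RMA compresses dim signals, and the number of arrays limits precision. Of 22206 transcript probe sets, 19572 had 1 gene symbol, all matched to RefSeq by gene identifier, 0 had several and 2634 were unnamed. Per symbol, the brightest probe set by mean over the 7 arrays was used, which dropped 67. Probe sets with "-neg-" or "-pos-" in their identifier were taken as negative and positive controls, and no gene annotation was used for them. 0 value columns were unmapped.

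Means, SDs and ranges over the 4 KO arrays, titled as such, were computed with Python 3.11.15, numpy 2.4.6 and pandas 2.3.3, and checked on simulated data. Figures were drawn with matplotlib 3.10.9. No groups were compared, and no test was made other than Dixon's for outlying arrays. A list's deviation is the median over its members of array value minus the 4-array mean. Dixon's ratio was set against its 95% critical value for 4 samples.

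The members, the gene lists and the rule were chosen with earlier results of these data known. The rule named Opa1, the 25 brightest genes without provisional symbols, up to 6 bright and 3 wide-ranging members of each list with those not above the controls, the 20 widest ranges, the 5 largest gaps per array and direction, and the 5 steadiest of the 500 brightest genes. Inppl1, Trim12a, Trim12c, Trim30a, Tfpi, Flt3, Marchf1, Rplp0, Tlr12 and Il2rb beside the NK cell list were named after their values were seen. Alternatives were other reference levels, probe set rules, quantile normalization, centring on the median, a filter on dim genes and leaving out each array. The reference level of GC background probe sets was chosen after seeing the data.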

Additional observations from a re-analysis of the deposited data

Results flagged for a closer look

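Among the 150 single genes whose values are given, 11 had 1 array farther from the others than Dixon's 95% critical value for 4 samples allows, where the ratio is the gap to the nearest array divided by the whole range. Chance flags about 5% of groups, and 4.67% of all named genes passed the value. Many of the genes given were named for a wide range or a large gap, Nav2, Ccr2 and Hpgd among them, so their number is not read against those shares and their ratios restate that choice. Nav2 was high on KO 1 (ratio 0.922) and Ccr2 low on KO 1 (0.885), with ranges of 1.39 and 1.63 log2. Hpgd was low on KO 2 (0.846), with a range of 1.38. Il1b was high on KO 4 (0.898), with a range of 0.29. The remaining genes had ranges of at most 0.18: Cyba, high on KO 2 (0.919), Arpc2, high on KO 2 (0.912), Nfkbia, high on KO 1 (0.902), Psme1, high on KO 3 (0.870), Rab10, high on KO 4 (0.866), Ctsz, low on KO 1 (0.851), and Wdfy4, low on KO 1 (0.834).

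Of the list medians, that of the NK cell genes was low on KO 2, at 7.14 over a range of 1.16 (ratio 0.846). That of the mitochondrial fusion, fission and cristae genes was low on KO 1, at 10.05 over a range of only 0.20 (ratio 0.857). By the median deviation of its members this list was lowest on KO 4 instead, at -0.09, against -0.05 on KO 1.

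Probe sets without a gene name also carried signal. Of 2634 such transcript probe sets, 392 (14.9%) were above the 95th percentile of the negative controls on all 4 KO arrays.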

How the results depend on the processing

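The number of genes above the controls depends on the reference level. It was 3345 at the 95th percentile of the negative controls, 537 at their 99th percentile and 13671 at their median, and 5267 genes exceeded the highest GC background probe set on all arrays. Leaving out each array in turn gave 3356 to 3517. Among genes at or above the median level, the median SD was 0.132 and the count of ranges over 1 log2 was 170. The lowest correlation there was 0.967. Fewer genes and a narrower span of levels enter, and their part in these values was not tested. Leaving out each array gave a median SD of 0.130 to 0.142, 153 to 265 genes with a range over 1 and a lowest correlation of 0.988 to 0.991. Under the scaling and probe set alternatives these 4 values stayed within 1.5 times or 1 SD, and at least 24 of the 25 brightest genes remained among the brightest under each alternative run. Of 136 list deviations, 9 changed sign under centring and 17 under quantile normalization, with shifts of at most 0.016 and 0.054. Leaving out 1 array, which also changes the mean they are taken from, turned the sign of 9 to 17 of 102, with largest shifts of 0.122 to 0.160. No paired analysis was possible because no groups were compared. Signal near the negative controls limits what can be said of dim genes.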

Other observations

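Of the unnamed probe sets, 9 have M in the chromosome place of their identifier, and 8 of these were above the 95th percentile of the negative controls on all 4 KO arrays. Their means lay between 10.16 and 13.28, and the largest range between arrays was 0.76.

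A further chromosome 7 gene outside the stretch from Inppl1 to Gm1966 was uneven between the arrays. Rab30, a GTPase of the Golgi, read 10.83, 10.97, 9.79 and 10.33, with KO 1 and KO 2 the higher pair.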
